A study of Mus musculus with 8 samples.

Results

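Of the creatine genes examined in LLC1 and MLE12 cells, 3 differed widely between the lines. The first enzyme of creatine synthesis, Gatm, was present in LLC1 and close to absent in MLE12. The creatine kinase gene Ckb was abundant in MLE12 and low in LLC1, and the kinase gene Ckmt1 was at a modest level in MLE12 and near 0 in LLC1. The second enzyme of synthesis, Gamt, and the creatine transporter, Slc6a8, were found in both lines and were slightly higher in LLC1. The muscle kinase Ckm was near 0 in both. These 6 genes, Gatm, Gamt, Slc6a8, Ckb, Ckm and Ckmt1, were taken by name from a deposited table of raw counts for 43346 genes. Each name occurred in 1 row of the table. The set was selected on its function and its measured LLC1 and MLE12 counts, with results of the comparison already known, so the values of the 6 genes, and the thresholds that the fit over all genes put them past, are a description and are not evidence of a difference.

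Creatine is made in a pair of steps. Arginine:glycine amidinotransferase, the product of Gatm, joins the amidino group of arginine to glycine and yields guanidinoacetate and ornithine, and guanidinoacetate methyltransferase, the product of Gamt, methylates guanidinoacetate with S-adenosylmethionine. Cells that make little creatine take it up through the sodium- and chloride-dependent carrier encoded by Slc6a8. Creatine kinases move phosphate between ATP and creatine, and the phosphocreatine formed buffers ATP where it is used quickly. Ckb encodes the cytosolic brain-type subunit, Ckm the cytosolic muscle-type subunit and Ckmt1 the ubiquitous mitochondrial enzyme.

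The series measured poly-A RNA of LLC1 cells in 4 libraries and of MLE12 cells in 4 libraries, both left untreated and harvested at about 80% confluence. LLC1, or Lewis lung carcinoma, arose in the lung of a C57BL mouse. MLE12 cells came from a lung tumour of transgenic mice in which the surfactant protein C promoter drove the large T antigen of SV40, so these epithelial cells are themselves transformed. Each line is 1 line, and effects of strain, tumour and culture on it cannot be told apart. Library totals were 46.8 to 55.3 M counts in LLC1 and 48.6 to 76.7 M counts in MLE12. The lung epithelial markers Nkx2-1, Sftpc, Sftpb, Cdh1, Epcam and Krt19 were higher in MLE12 and Krt18 was higher in LLC1. The summed level of these 7 genes was 288 to 309 CPM in LLC1, against 887 to 934 CPM in MLE12. Krt18 made up nearly all of the LLC1 sum (293 CPM in LLC1, against 0.930 CPM in MLE12). Krt19 was the largest part in MLE12 (3.80 CPM in LLC1, against 554 CPM in MLE12). Among the immune markers Ptprc, Adgre1, Itgam and Cd3e were at 0 to 2 counts over the LLC1 libraries and 0 to 6 counts over the MLE12 libraries, while Cd68 stood at 8.37 CPM in LLC1, against 2.17 CPM in MLE12. Of 6 mesenchymal markers 4 were higher in LLC1 and 2 in MLE12. They summed to 5339.3 to 5747.8 CPM in LLC1, against 1006.6 to 1055.4 CPM in MLE12. Vim and Col3a1 made up nearly all of the LLC1 sum, and Vim made up most of the MLE12 sum. Cdh2 was higher in MLE12 (20.8 CPM in LLC1, against 82.8 CPM in MLE12). So was Pdgfrb (1.61 CPM in LLC1, against 5.56 CPM in MLE12). The 5 endothelial markers summed to 0.495 to 0.935 CPM in LLC1, against 3.02 to 3.79 CPM in MLE12. Most of the MLE12 sum was Tek, at 0.0563 CPM in LLC1, against 2.95 CPM in MLE12. Pecam1, Cdh5 and Cldn5 had higher means in LLC1 and Kdr in MLE12, all at low counts. The part of these marker differences in the values of the creatine genes was not tested. CPM are counts divided by the scaled library size in M counts. Log2 fold changes are LLC1 over MLE12, ± SE, from 1 edgeR quasi-likelihood fit over all genes, and means are ± SD with n = 4 libraries per line.

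Of the 6 genes, 5 had enough counts to enter the fit over 18546 genes, and Ckm did not. All 5 passed an adjusted p of 0.05 (3 on the LLC1 side and 2 on the MLE12 side), where 81.6% of all tested genes passed, and nothing is read from that count. Against a minimum fold of 2, 3 of the 5 passed (Gatm, Ckb and Ckmt1), where 33.7% of all tested genes did. The CPM ranges of the lines did not overlap for these 5 genes, as for 76.3% of all tested genes. The labels do not say whether libraries came from separate cultures, so spreads and p-values cover only these libraries.

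**Figure D1:**
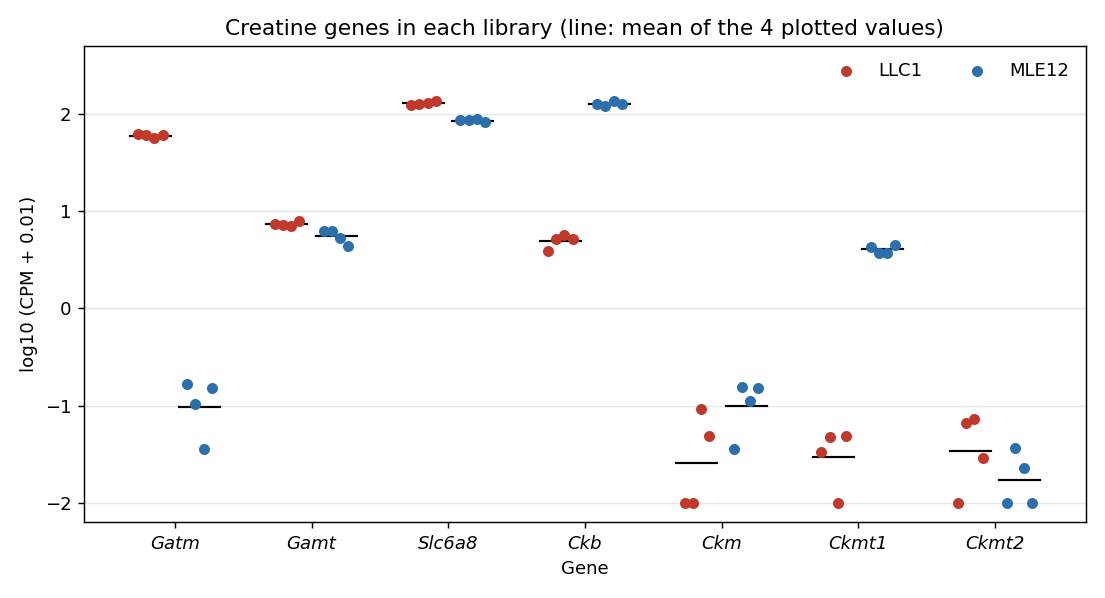
CPM of each creatine gene in each library on a log10 scale, after adding 0.01, with 4 LLC1 libraries (red, left) and 4 MLE12 libraries (blue, right) per gene and a line at the mean of the plotted values; a library without counts sits at the bottom. Gatm lies far higher in LLC1, Ckb and Ckmt1 lie far higher in MLE12, with Ckmt1 at a lower level than Ckb, Gamt and Slc6a8 lie close together, and Ckm and the added Ckmt2 lie near the bottom in both lines.

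Gatm showed the widest gap of the 5. It had 62.4, 60.2, 56.8 and 60.1 CPM in LLC1 replicates 1 to 4, against 0.155, 0.0928, 0.0254 and 0.140 CPM in MLE12 replicates 1 to 4. The 4 LLC1 libraries lay close together and every one was far above every MLE12 library. The MLE12 values rested on 12, 7, 2 and 7 counts, and the LLC1 values on 2698, 3220, 2746 and 3158 counts. The means were 59.9 ± 2.31 CPM in LLC1, against 0.103 ± 0.0584 CPM in MLE12, which gave a log2 fold change of 9.20 ± 0.13, or about 589-fold. In bulk RNA, fewer cells with a transcript and less of it per cell cannot be told apart. Among all tested genes 73 had a larger log2 fold change toward LLC1. The MLE12 level of Gatm was 0.173% of its LLC1 level. Of the 4609 genes with at least 50 CPM in LLC1, 8 had a lower share in MLE12, and the lowest was 0.0983% for Apbb1ip.

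Gatm lies on chromosome 2 from 122594467 to 122611303 on the minus strand (ENSMUSG00000027199, build mm10). Its promoter is shown because it was the member farthest toward LLC1, with the kinase promoters given further on for comparison. The 300 bases run from 250 before to 50 after the RefSeq start (build GRCm38.p6, minus strand, chr2:122611228-122611527), 5′ to 3′. Capitals mark CCAAT on either strand.
Gatm promoter: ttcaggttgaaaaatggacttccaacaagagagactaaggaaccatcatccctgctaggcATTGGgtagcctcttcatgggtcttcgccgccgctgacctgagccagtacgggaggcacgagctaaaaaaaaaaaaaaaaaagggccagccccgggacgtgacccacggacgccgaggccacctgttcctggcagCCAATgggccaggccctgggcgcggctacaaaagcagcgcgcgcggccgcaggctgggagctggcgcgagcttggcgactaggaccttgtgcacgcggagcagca
The window held this motif on the opposite strand, beginning 190 bases before the start, and again on the same strand, beginning 55 bases before the start. It was found in 37.4% of all 32851 RefSeq windows of the same length. No TATAAA on either strand was found in it, and TATAAA occurred in 13.6% of all windows. Its GC content was 60.7% with 22 CG dinucleotides, above 72.2% and 76.9% of all windows.

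Gamt, which completes creatine synthesis, was much less divided. It had 7.35, 7.13, 7.01 and 7.84 CPM in LLC1, against 6.25, 6.31, 5.34 and 4.34 CPM in MLE12. The lines did not overlap, but the lowest LLC1 and the highest MLE12 library were close, and MLE12 replicate 4 was the lowest of all. The means were 7.33 ± 0.368 CPM in LLC1, against 5.56 ± 0.926 CPM in MLE12 (log2 fold change 0.39 ± 0.11, or 1.31-fold). Of all tested genes 29.8% had a smaller absolute log2 fold change. Gamt lies on chromosome 10 from 80258151 to 80261012 on the minus strand, and its RefSeq promoter window held GGGCGG on either strand 4 times, a motif found at least once in 35.7% of all windows.

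Levels of different genes were compared per length, as RPKM (CPM divided by the deposited gene length in kb). Gatm exceeded Gamt 4.08-, 4.07-, 3.90- and 3.69-fold in RPKM in LLC1, against ratios of 0.0120, 0.00708, 0.00229 and 0.0155 in MLE12. Transcripts of both enzymes were counted in every library of both lines. Per length, those of Gatm were above those of Gamt in LLC1 and far below them in MLE12. In MLE12 Gamt was at 3.85 ± 0.641 RPKM and Gatm at 0.0344 ± 0.0195 RPKM.

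The transporter gene Slc6a8 was abundant in both lines. It had 123, 127, 131 and 137 CPM in LLC1, against 86.0, 85.9, 88.2 and 81.9 CPM in MLE12. All LLC1 libraries were above all MLE12 libraries, and libraries of 1 line differed little. The means were 130 ± 6.04 CPM in LLC1, against 85.5 ± 2.63 CPM in MLE12, which gave a log2 fold change of 0.60 ± 0.04, or 1.52-fold. Of all tested genes 42.9% had a smaller absolute log2 fold change. Slc6a8 lies on chromosome X from 73673150 to 73682502 on the plus strand.

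The cytosolic kinase gene Ckb went the other way. It had 3.88, 5.20, 5.66 and 5.19 CPM in LLC1, against 127, 120, 135 and 128 CPM in MLE12. No library of LLC1 came near those of MLE12, and LLC1 replicate 1 was the lowest. The means were 4.99 ± 0.767 CPM in LLC1, against 128 ± 6.12 CPM in MLE12, so Ckb was 25.5-fold lower in LLC1 (log2 fold change -4.67 ± 0.08). Ckb was nevertheless read in every LLC1 library, with 168, 278, 274 and 273 counts. Its LLC1 level was 3.91% of its MLE12 level, and 130 of the 4761 genes with at least 50 CPM in MLE12 had a lower share.

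The mitochondrial kinase gene Ckmt1 was also higher in MLE12, at a lower level. It had 1, 2, 0 and 2 counts in LLC1, or 0.0231, 0.0374, 0.00 and 0.0381 CPM, against 333, 280, 290 and 224 counts in MLE12, or 4.31, 3.71, 3.68 and 4.48 CPM. The LLC1 libraries were at or near the limit of detection, since 0 observed counts are compatible with as many as 3, and the MLE12 libraries lay close together. The means were 0.0246 ± 0.0178 CPM in LLC1, against 4.05 ± 0.409 CPM in MLE12, which gave a log2 fold change of -7.21 ± 0.30, or about 148-fold lower in LLC1. That fold rests on 5 counts in LLC1, so its size is loosely known. The gene Strc overlaps the end of Ckmt1 on the opposite strand and had 3 counts over the 8 libraries.

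Ckb (chromosome 12, 111669355 to 111672338, minus strand) and Ckmt1 (chromosome 2, 121357714 to 121363737, plus strand) were the members higher in MLE12, and their promoters are shown for comparison. The windows are those of RefSeq in GRCm38.p6, chr12:111672289-111672588 on the minus strand for Ckb and chr2:121357526-121357825 on the plus strand for the first of a pair of Ckmt1 starts, 5′ to 3′. Capitals mark the TATA box letters TATAAA and the CCAAT letters on either strand.
Ckb promoter: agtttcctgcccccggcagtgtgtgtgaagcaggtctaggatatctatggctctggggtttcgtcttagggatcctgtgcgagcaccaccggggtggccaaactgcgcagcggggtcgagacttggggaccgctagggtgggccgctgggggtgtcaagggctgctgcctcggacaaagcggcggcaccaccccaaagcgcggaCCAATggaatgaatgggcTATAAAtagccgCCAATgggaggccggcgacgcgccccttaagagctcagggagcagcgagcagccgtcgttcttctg
Ckmt1 promoter: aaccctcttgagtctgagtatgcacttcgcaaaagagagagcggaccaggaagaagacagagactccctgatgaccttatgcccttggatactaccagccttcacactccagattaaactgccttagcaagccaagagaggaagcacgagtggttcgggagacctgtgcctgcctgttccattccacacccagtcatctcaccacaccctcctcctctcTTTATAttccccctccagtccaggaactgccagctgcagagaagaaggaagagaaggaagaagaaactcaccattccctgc
In Ckb the TATA box letters began 28 bases before the start, between copies of the CCAAT letters that began 46 and 16 bases before it. In Ckmt1 the TATA box letters lay on the opposite strand and began 31 bases before the start, and no CCAAT was found on either strand. The TATA box motif was thus in both printed kinase windows, and in 13.6% of all RefSeq windows. It was absent from the windows of Gatm, Gamt, Ckm and the second Ckmt1 start. The printed windows were picked by the direction of their genes, so a link of the motif to the levels was not tested. The Ckb window was GC-rich (63.0%, with 22 CG dinucleotides), whereas that of Ckmt1 had 52.0% GC and 4 CG dinucleotides, near the median of all windows for GC (52.7%). The search read the C57BL/6J reference and not the sequence of either line, and a match of letters is not a binding site. Promoter windows matched 5 of the 6 members. Slc6a8 was not among them.

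Ckm and the other mitochondrial kinase gene, Ckmt2, the sarcomeric form and not a member, were near 0. Ckm had 0, 0, 4 and 2 counts in LLC1, against 2, 11, 8 and 7 counts in MLE12. The ranges overlapped, and the means were 0.0302 CPM in LLC1, against 0.103 CPM in MLE12. Ckmt2 had 0, 3, 3 and 1 counts in LLC1 and 0, 2, 1 and 0 counts in MLE12. An antisense gene, A930016O22Rik, overlaps Ckm and had 50 counts over the 8 libraries, and since the counting strand is not given, reads of both cannot be told apart.

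Muscle markers were read beside Ckm. Of 30 muscle genes only 10 had enough counts to be tested: LLC1 had more of 2, MLE12 more of 3 and 5 were not called, where 40.7% of all tested genes were higher in LLC1 and 40.9% in MLE12. Their summed level over all 30 was 8.77 to 10.1 CPM in LLC1, against 26.3 to 27.6 CPM in MLE12. Most of the MLE12 sum came from Tnnt2 and Mef2c, so it does not describe the list as a whole. Mef2c, named after its values were seen, was at 0.0157 CPM in LLC1, against 9.99 CPM in MLE12. The myogenic regulators Myod1, Myf5 and Myf6 and the myosins Myh2 and Myh4 had no count in any of the 8 libraries, and Myog, another myogenic regulator, had 0 counts in LLC1 and 2 in MLE12. The list median was 0.30, against 0.02 over all tested genes. Tnnt2, cardiac troponin T, was at 0.0351 CPM in LLC1, against 10.3 CPM in MLE12 (-8.11 ± 0.20, edgeR adjusted p = 7.1e-18). The count higher in LLC1 was 4 without LLC1 replicate 3, without MLE12 replicate 1 or without MLE12 replicate 3.

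Summed over Ckb, Ckm, Ckmt1 and Ckmt2, creatine kinase RPKM was 2.64, 3.57, 3.93 and 3.57 in LLC1, against 87.7, 83.0, 93.1 and 88.5 in MLE12. The sum averaged 3.43 ± 0.554 RPKM in LLC1 and 88.1 ± 4.12 RPKM in MLE12, or 25.7 times as much in MLE12. Ckb made up almost all of it in both lines, with 98.5% ± 0.898 in LLC1 and 98.1% ± 0.197 in MLE12. Ckmt1 made up 0.300% ± 0.203 in LLC1 and 1.84% ± 0.200 in MLE12. The sum differed greatly between lines, while the dominant isoform was the same. With raw counts not divided by length, the Ckmt1 share was 0.504% in LLC1 and 3.07% in MLE12. The deposited lengths of Ckb (1478 bases) and Ckm (1415 bases) are shorter than in GENCODE M21 (2895 and 2913 bases), and with the M21 lengths, an alternative chosen after seeing the data, the Ckmt1 share was 0.582% in LLC1 and 3.55% in MLE12. The M21 lengths would also lower the summed RPKM in both lines. The kinase genes are paralogs, and how reads with several alignments were counted is not given in the sources used here.

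**Figure D2:**
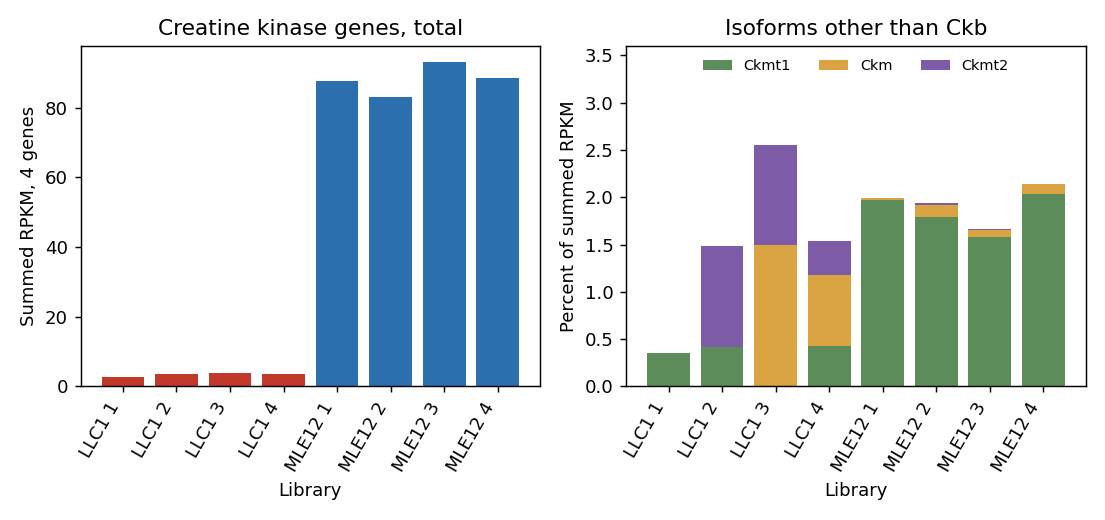
Left, summed RPKM of Ckb, Ckm, Ckmt1 and Ckmt2 in each library, LLC1 in red and MLE12 in blue; right, the percent of that sum from the isoforms other than Ckb. The sum stays under 4 RPKM in LLC1 and is 83.0 to 93.1 RPKM in MLE12; the LLC1 shares at right rest on 0 to 4 counts per gene and library, and in MLE12 Ckmt1 holds 1.58 to 2.03%.

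Ordered per length, the members formed different sequences in the lines. In LLC1 the order was Slc6a8 (24.9 ± 1.16 RPKM), Gatm (19.9 ± 0.771 RPKM), Gamt (5.08 ± 0.255 RPKM), Ckb (3.37 ± 0.519 RPKM), Ckm (0.0213 RPKM) and Ckmt1 (0.00987 RPKM). In MLE12 it was Ckb (86.4 ± 4.14 RPKM), Slc6a8 (16.4 ± 0.504 RPKM), Gamt (3.85 ± 0.641 RPKM), Ckmt1 (1.62 ± 0.164 RPKM), Ckm (0.0730 RPKM) and Gatm (0.0344 RPKM). Neighbours in these orders had separate ranges over the 4 libraries, except Ckm and Ckmt1 in LLC1 and Ckm and Gatm in MLE12. Slc6a8 stood above 85.4% of tested genes in LLC1 and above 77.4% in MLE12. Gamt stood above 52.4% in LLC1 and above 46.7% in MLE12. Ckb stood above 45.1% of tested genes in LLC1 and above 97.0% in MLE12, and Ckmt1 above 2.69% in LLC1 and above 33.9% in MLE12. The Ckb levels and ranks use its deposited length of 1478 bases. The 2895 bases of GENCODE M21 would lower its RPKM, and ranks with that length were not computed. Gatm stood above 81.9% of tested genes in LLC1 and above 4.06% in MLE12.

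**Figure D3:**
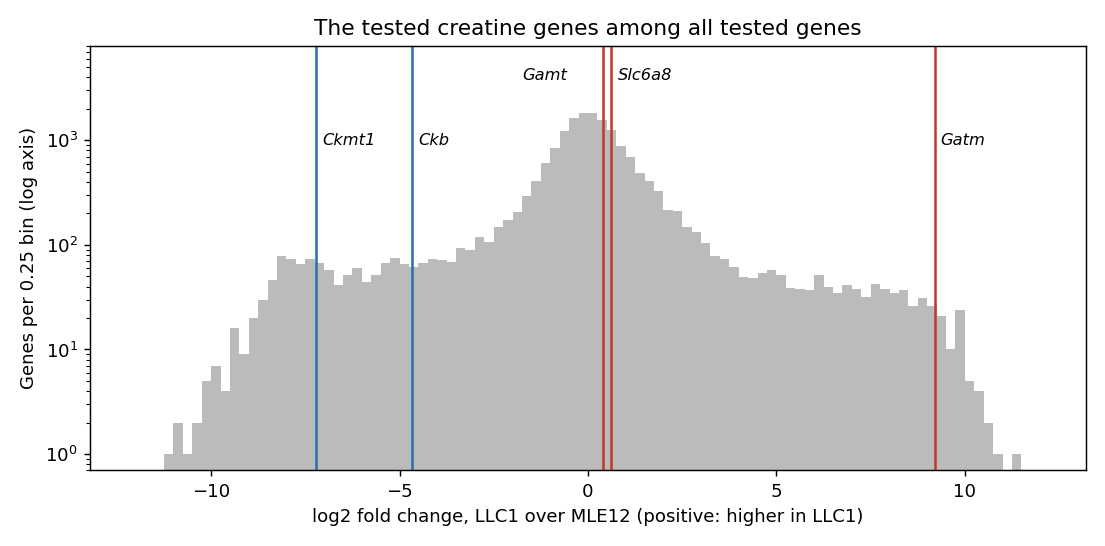
Histogram of log2 fold changes (LLC1 over MLE12) of all 18546 tested genes in bins of 0.25 with a log axis of gene number; vertical lines mark the tested creatine genes, red where higher in LLC1 and blue where higher in MLE12. Gamt (0.39) and Slc6a8 (0.60) fall within the central peak, while Gatm (9.20), Ckb (-4.67) and Ckmt1 (-7.21) fall in the tails.

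Neighbouring genes were looked up by position after the values of the members were known. Gatm and Ckmt1 are 1.23 Mb apart on chromosome 2, with 21 tested protein-coding genes between them, and lay in opposite tails. The nearest tested protein-coding gene after Gatm, AA467197 (25.7 kb away), was also higher in LLC1, with 7.75 CPM in LLC1, against 0.0341 CPM in MLE12 (7.69 ± 0.22). On the other side Shf (225 kb away) had a log2 fold change of 0.79 ± 0.09. Pnck, a calcium/calmodulin-dependent kinase gene 13.0 kb before Slc6a8, was at 9.53 CPM in LLC1, against 0.0378 CPM in MLE12 (8.12 ± 0.27), whereas Bcap31 on the other side was higher in MLE12 (-0.53 ± 0.14). Beside Ckb, Mark3 (-0.82 ± 0.04) was higher in MLE12 and Trmt61a (0.89 ± 0.07) higher in LLC1. Beside Ckmt1, Ppip5k1 (-1.66 ± 0.06) was higher in MLE12 and Catsper2 (0.08 ± 0.15) was not called. The genes around Gamt, Ndufs7 (0.11 ± 0.05) and Dazap1 (0.03 ± 0.05), differed little.

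Genes whose profile over the 8 libraries was most like that of each member were found by the Euclidean distance between log2 CPM profiles, each centred on its own mean, among protein-coding genes that reached 10 CPM in either line. With only a pair of lines this measure mostly matches the fold change. For Gatm they were Nefl (distance 0.592), Olfm1 (0.699) and Gpr149 (0.716). For Ckb they included Rnf150 (0.301) and Slc25a23 (0.408), the second a mitochondrial carrier of ATP-Mg and phosphate. For Ckmt1 they were Sh2d4a (0.474), Tdrkh (0.588) and Rab11fip4 (0.624). For Slc6a8 they were Eml4 (0.0694), Map2k5 (0.0780) and Rrp1b (0.0787), and for Gamt Zfyve26 (0.164), Zfp516 (0.167) and Soga1 (0.215).

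Genes that supply arginine and glycine, the substrates of the Gatm enzyme, or use arginine and ornithine were more often higher in LLC1. Of 22 tested, of 25 listed, 15 were higher in LLC1 and 4 in MLE12, while 3 were not called, where 40.7% of all tested genes were higher in LLC1 and 40.9% in MLE12. The list median was 0.87, against 0.02 over all tested genes. This list was drawn up with earlier results of these data known, and a link of its genes to the level of Gatm was not tested. The serine hydroxymethyltransferases, which make glycine from serine, were higher in LLC1: Shmt1 was at 59.4 ± 1.93 CPM in LLC1, against 7.88 ± 0.229 CPM in MLE12 (2.91 ± 0.05, edgeR adjusted p = 8.6e-20), and Shmt2 had a log2 fold change of 1.73 ± 0.04. Cationic amino acid transporters, which carry arginine, were split. Slc7a3 was at 21.2 ± 2.36 CPM in LLC1, against 2.11 ± 0.275 CPM in MLE12 (3.33 ± 0.11), and Slc7a2 at 0.128 ± 0.0953 CPM in LLC1, against 49.9 ± 1.25 CPM in MLE12 (-8.66 ± 0.15). The most abundant of these carriers, Slc7a1, named after its values were seen, was at 249 ± 6.25 CPM in LLC1, against 170 ± 4.39 CPM in MLE12. Oat, which breaks down ornithine, the by-product of the Gatm reaction, was higher in MLE12 (-0.54 ± 0.04), as was Gcsh of the glycine cleavage system (-0.91 ± 0.04).

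Methyl donor genes were called in shares near those of all tested genes. Of 17 tested, of 18 listed, 7 were higher in LLC1 and 6 in MLE12, while 4 were not called, and the median was 0.24, where 40.7% of all tested genes were higher in LLC1 and 40.9% in MLE12. Mat2a, which makes S-adenosylmethionine outside the liver, was at 308 ± 8.55 CPM in LLC1, against 248 ± 9.57 CPM in MLE12 (0.31 ± 0.04, edgeR adjusted p = 1.1e-06). Ahcy, which removes the S-adenosylhomocysteine left by methylation, was at 113 ± 6.07 CPM in LLC1, against 48.0 ± 3.72 CPM in MLE12 (1.23 ± 0.06). Cth, of the transsulfuration of homocysteine to cysteine, was at 74.7 ± 4.34 CPM in LLC1, against 2.64 ± 0.416 CPM in MLE12 (4.84 ± 0.08). Nnmt, which uses S-adenosylmethionine to methylate nicotinamide, had 2875 counts over the LLC1 libraries and 1 over the MLE12 libraries. Relative to library totals that is a ratio of 3824.7, with an exact interval of 686 to 151120.5 (95%, counting error only). Higher in MLE12 were Ahcyl1 (-0.53 ± 0.04), Amd1 (-0.37 ± 0.05), which makes the decarboxylated form used for polyamines, and Ahcyl2 (-0.16 ± 0.05). Amd1 has a near-identical copy, Amd2, so its share of reads is uncertain. The call of Ahcyl2 ended without LLC1 replicate 1, at a log2 fold change of -0.11 (edgeR adjusted p = 0.088), with upper-quartile factors, at -0.10 (adjusted p = 0.10), and with at least 1 CPM required in 4 libraries, at -0.11 (adjusted p = 0.074), and over its alternatives the value ran from -0.25 to -0.10. Bhmt, a betaine-dependent methyltransferase named after its values were seen, had 1 count over the LLC1 libraries and 1270 over the MLE12 libraries.

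Other genes of phosphoryl transfer were called in both directions. Of 20 tested, of 25 listed, 7 were higher in LLC1 and 11 in MLE12, while 2 were not called, and the median was -0.30, where 40.7% of all tested genes were higher in LLC1 and 40.9% in MLE12. Against a fold of 2 the balance turned, with 6 higher in LLC1 and 5 in MLE12, where 16.7% of all tested genes were higher in LLC1 and 16.9% in MLE12. Among the adenylate kinases, which move phosphate among adenine nucleotides, Ak4 was at 33.0 ± 1.53 CPM in LLC1, against 0.555 ± 0.154 CPM in MLE12 (5.88 ± 0.12), and Ak5 had a log2 fold change of 3.53 ± 0.10. Nme4, a mitochondrial nucleoside diphosphate kinase, was at 30.3 ± 1.28 CPM in LLC1, against 0.106 ± 0.0683 CPM in MLE12 (8.22 ± 0.16, edgeR adjusted p = 3.0e-19). The mitochondrial carriers Slc25a23 (2.47 ± 0.157 CPM in LLC1, against 72.1 ± 2.69 CPM in MLE12, -4.86 ± 0.07) and Slc25a42 (-2.32 ± 0.09), a coenzyme A and adenine nucleotide carrier, were higher in MLE12. Alpl, an alkaline phosphatase that can hydrolyse phosphocreatine, was low in both lines, at 0.0187 CPM in LLC1, against 0.425 ± 0.0718 CPM in MLE12 (-4.26 ± 0.64). All 4 LLC1 counts of Alpl came from replicate 2, and without it the log2 fold change was -7.69.

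Another list held relatives of Slc6a8 in the Slc6 family, other than its glycine carriers, together with Slc16a12 from another family. Of these 18 genes 6 were tested, Slc16a12 among them. LLC1 had more of 2 and MLE12 more of 4, and the median was -2.66, where 40.7% of all tested genes were higher in LLC1 and 40.9% in MLE12. The glycine carrier Slc6a9, listed with the glycine genes and named after its values were seen, was at 114 ± 3.29 CPM in LLC1, against 36.0 ± 0.733 CPM in MLE12. The taurine transporter Slc6a6, the abundant relative of Slc6a8, was at 399 ± 5.86 CPM in LLC1, against 680 ± 27.9 CPM in MLE12 (-0.77 ± 0.04, edgeR adjusted p = 1.8e-12), the opposite direction to Slc6a8. Slc6a15, a carrier of neutral amino acids, was at 28.4 ± 0.657 CPM in LLC1, against 0.264 ± 0.0888 CPM in MLE12 (6.74 ± 0.13), and Slc6a17 at 0.661 ± 0.0592 CPM in LLC1, against 148 ± 8.78 CPM in MLE12 (-7.81 ± 0.08). Slc16a12, a monocarboxylate carrier relative that transports creatine, was at 0.0362 CPM in LLC1, against 0.878 ± 0.0879 CPM in MLE12 (-4.55 ± 0.59). All 7 of its LLC1 counts came from replicate 3, and without that library the log2 fold change was -8.76.

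Regulators of mitochondrial biogenesis and AMPK, the sensor of AMP and ATP, differed mostly by small amounts. Of 13 tested, of 17 listed, 3 were higher in LLC1 and 7 in MLE12, while 3 were not called, and the median was -0.12, where 40.7% of all tested genes were higher in LLC1 and 40.9% in MLE12. Esrra, a nuclear receptor of mitochondrial genes, was at 39.3 ± 0.974 CPM in LLC1, against 25.3 ± 0.398 CPM in MLE12 (0.63 ± 0.05), and the AMPK catalytic subunit Prkaa1 was also higher in LLC1 (0.48 ± 0.05). The AMPK subunit Prkag2 was at 9.73 ± 0.942 CPM in LLC1, against 30.1 ± 1.70 CPM in MLE12 (-1.63 ± 0.07, edgeR adjusted p = 7.5e-14). The transcription factor subunit Gabpa (-0.59 ± 0.04) and the AMPK-activating kinase Stk11 (-0.42 ± 0.05) were higher in MLE12. Ppargc1a and Ppargc1b, low in both lines and named after their values were seen, passed a fold of 2 in opposite directions. Ppargc1a was at 0.544 ± 0.142 CPM in LLC1, against 1.51 ± 0.123 CPM in MLE12 (-1.47 ± 0.22). Ppargc1b was at 3.28 ± 0.321 CPM in LLC1, against 0.915 ± 0.0944 CPM in MLE12 (1.83 ± 0.16).

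**Figure D4:**
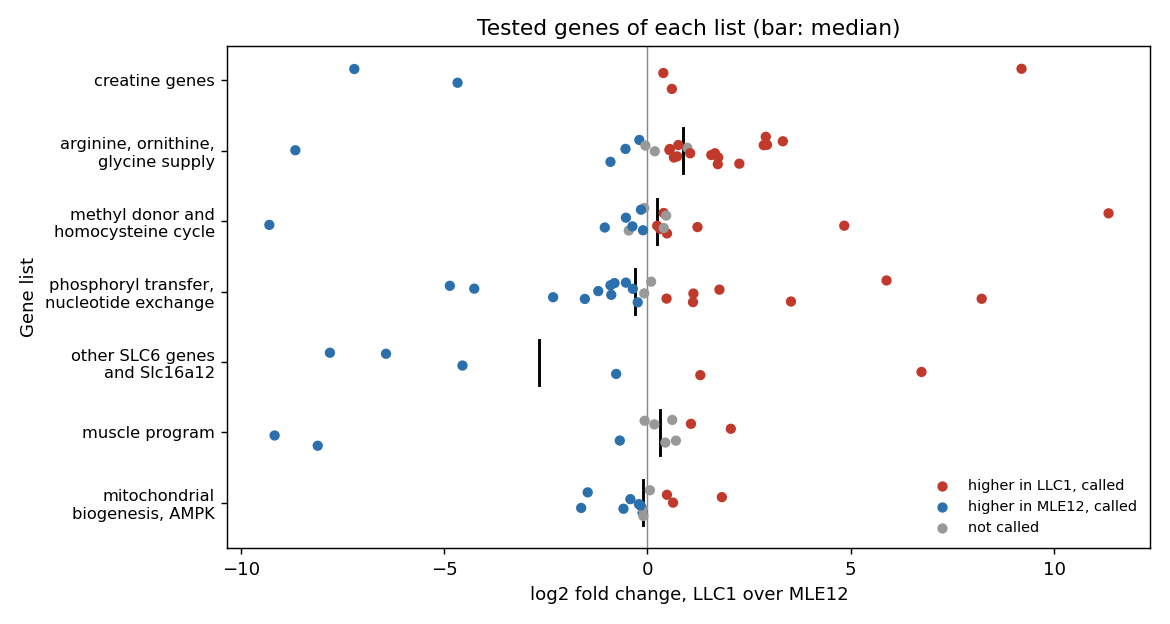
Log2 fold changes (LLC1 over MLE12) of the tested genes of each list, 1 point a gene, red where called higher in LLC1, blue where called higher in MLE12 and grey where not called, with a bar at the list median (none for the creatine genes). Arginine, ornithine and glycine genes lie mostly right of 0 (median 0.87) apart from Slc7a2 at -8.66, and the other lists hold genes on both sides.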

How the data were processed

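The authors deposited 1 table of raw counts per gene for 8 libraries (4 LLC1, 4 MLE12), each with its name, coordinates and length. The submitters' processing notes list TopHat2 and featureCounts beside CASAVA and edgeR, and the build mm10; versions, strand setting and annotation release are not given in the sources used here. In every library more genes had a count of 2 than of 1, so both mates of a pair may have been counted. Groups came from the cell line in the labels.

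Counts were fitted with edgeR 4.0.16 in R 4.3.3 (filterByExpr, TMM factors 0.924 to 1.04, robust glmQLFit, glmQLFTest, no covariates), with Benjamini-Hochberg adjustment over 18546 genes and a threshold of 0.05; glmTreat tested a fold of 2. The SE is the log2 fold change divided by the square root of F. RPKM is scaled CPM per kb of the deposited length, which equals the exon length in GENCODE M21 for 4 of the 6 members. The fit was tested on simulated data. Alternatives used DESeq2 1.42.0 and limma 3.58.1, among others. Intervals and floors cover counting error only, since reads were amplified without molecular identifiers, and they take counts as independent. If both mates of a pair were counted, they are too narrow even for that error.

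The members, lists and alternatives were chosen with earlier results of these data known. Named genes are the 6 members, Ckmt2, Mat2a, Alpl, Slc6a6, Slc16a12, up to 3 called genes per list and direction with the largest change that reached 10 CPM in either line, and the 3 most similar profiles per member. A few genes that meet this rule or belong to a list are not reported here. Promoters came from RefSeq windows of GRCm38.p6, the same build as mm10. The motifs searched on both strands were the TATA box TATAAA, then the pentamer CCAAT, then the GC box with the letters GGGCGG, and then the E-box with the letters CANNTG, which was in 72.3% of all windows; none overlapped in the windows printed. No columns of samples were left out (0).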

Additional observations from a re-analysis of the deposited data

Results flagged for a closer look

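Within a line of 4 libraries, 1 library stood apart from the other 3 for 6 of 78 groups of values checked (its gap to the nearest library, as a share of the range, was above Dixon's critical value at 95%; chance flags about 1 in 20 groups). None of the 6 was a creatine gene. Nnmt had 0.0129 CPM in MLE12 replicate 1 and no count in the other MLE12 libraries (gap 1.00). That was 1 count in all, so the flag was certain, and the rate of 1 in 20 does not apply to groups with so few counts. Alpl had 0.0748 CPM in LLC1 replicate 2 and no count in the other LLC1 libraries (gap 1.00). Slc16a12 had 0.145 CPM in LLC1 replicate 3 and no count in the other LLC1 libraries (gap 1.00). Slc25a23 was at 68.1 CPM in MLE12 replicate 4, against 73.0 to 73.8 CPM in the other MLE12 libraries (gap 0.869). Tnnt2 was at 11.1 CPM in MLE12 replicate 3, against 10.1 CPM in each of the other MLE12 libraries (gap 0.915). Prkaa1 was at 66.7 CPM in MLE12 replicate 4, against 58.0 to 59.1 CPM in the other MLE12 libraries (gap 0.875).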

How the results depend on the processing

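The log2 fold changes of the 5 tested creatine genes kept their direction and their side of the threshold in all 90 values from 18 refits. The refits used DESeq2, limma-voom, other scalings and filters, removal of the 20 most abundant genes, halved counts, the replicate block and each library left out. The log2 fold changes ran from 8.83 to 9.53 for Gatm, 0.29 to 0.45 for Gamt and 0.50 to 0.66 for Slc6a8. For Ckb they ran from -4.77 to -4.56 and for Ckmt1 from -7.47 to -6.83. Scaling by library totals alone shifted the median of all genes by -0.10, with 45.3% of calls higher in LLC1, against 49.9% as reported. Genes called numbered 15132 as reported, 14939 to 15422 with 1 library left out, and 6243 (3100 higher in LLC1) against a fold of 2. Against a fold of 2, 9 arginine and glycine genes were higher in LLC1 and 1 in MLE12, and 3 methyl donor genes were higher in LLC1 and 1 in MLE12. On that test 6 phosphoryl transfer genes were higher in LLC1 and 5 in MLE12, against 7 and 11 as reported, 1 gene of the Slc6 and Slc16a12 list was higher in LLC1 and 3 in MLE12, and 1 muscle gene and 1 mitochondrial regulator were higher in LLC1 and 2 of each in MLE12. Fewer calls follow from the stricter test. With no filter, which tests more genes, 7 muscle genes were higher in LLC1 and 5 in MLE12. Requiring 1 CPM in 4 libraries left 1 gene of the Slc6 and Slc16a12 list higher in LLC1. Muscle genes higher in LLC1 numbered 2 to 4 with 1 library left out, and the cause was not tested. Without division by length the Ckmt1 share of kinase RPKM was 0.504% in LLC1 and 3.07% in MLE12, and the Ckb share in MLE12 96.8%. With M21 lengths these were 0.582%, 3.55% and 96.4%. The labels give no pairing by replicate number, and correlations of same-numbered deviations were small (-0.01, 0.11, 0.08 and -0.06). LLC1 replicates 2 and 3, but not 1 and 4, correlated best with the MLE12 library of the same number. With the number as a replicate block 14795 genes were called. Values near 0, such as Gatm in MLE12 and Ckmt1 in LLC1, are limited by depth.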
